A study of Mus musculus with 6 samples.

Results

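The 10 genes described here encode carriers that move amino acids across the plasma membrane: Slc7a5, Slc3a2, Slc1a4, Slc1a5, Slc38a1, Slc38a2, Slc38a3, Slc7a1, Slc7a3 and Slc6a9. They were chosen by name, and each is read from its brightest probe set on average, out of those assigned to that symbol and no other. All 10 were found among 19937 genes measured. RNA came from mammary epithelial organoids, clumps of gland tissue released by collagenase and hyaluronidase and grown in Matrigel, a basement-membrane gel. All came from age-matched female FVB mice of the genotype ErbB3 DOX-KO, in which doxycycline (DOX) is meant to induce loss of Erbb3, an ErbB-family receptor. The control group was kept for 14 days without DOX and the other group for the same time with 5 µM DOX, with 3 arrays in each, so that controls and treated cultures share the genotype and differ in the drug. The labels do not name the promoter or cell type that drives the inducible allele, and no culture of wild-type organoids with DOX was analysed here, so effects of the drug and of the allele cannot be told apart.

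Amino acids cross the plasma membrane through families of carriers with overlapping substrates. Slc7a5 (LAT1) exchanges large neutral amino acids such as leucine and is held at the surface by a disulphide bond to the heavy chain Slc3a2 (4F2hc, CD98). Slc1a4 and Slc1a5 exchange alanine, serine, cysteine and, for Slc1a5, glutamine. Slc38 members couple small neutral amino acids or glutamine to sodium, Slc7a1 and Slc7a3 carry arginine and lysine, and Slc6a9 carries glycine. Several of these genes are known targets of ATF4, a transcription factor made when amino acids run short, and the lactating gland draws on such carriers to supply milk protein synthesis.

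The array of DOX replicate 2 differed from the rest, with correlations across genes of 0.816 to 0.865 to any other array against at least 0.963 among the other 5. On that array, genes of the highest decile of control levels (decile 10) had a median deviation of −1.59 from the control mean on the log2 scale and genes of the lowest decile one of 0.84. The carriers are therefore described with all 6 arrays and again with the 5 arrays without DOX replicate 2, a fit that rests on 2 arrays labelled DOX. Erbb3 read 9.78, 9.71 and 9.69 in the control arrays and 10.36, 9.31 and 9.82 in DOX replicates 1, 2 and 3. Its difference of 0.10 (SE 0.29, limma adjusted p = 0.845) gave p = 0.7 by exact permutation, two-sided, where 3 against 3 arrays cannot go below 0.1. It was 0.37 when DOX replicate 2 was left out (limma adjusted p = 0.105). The array thus did not show loss of the targeted transcript, which exons the allele removes is not stated, and every direction given here is that of the group labels. Of the 7 luminal markers all but Krt19, in decile 4, lay in decile 10 of control levels, and the 6 basal markers lay in deciles 4 to 6.

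No carrier passed the test with all 6 arrays, and 7 of the 10 passed without DOX replicate 2. In simulated data the 6-array fit recovered 2% of 2-fold changes, so a miss there says little about changes of that size. That simulation gave both groups the same noise and no shared shift of a whole array, unlike these data, so the 2% is a rough guide. With 6 arrays, 0 members were higher and 0 lower at a limma p adjusted over all genes under 0.05, and 2, Slc7a5 and Slc1a5, had an unadjusted p under 0.05. In that fit 0.12% of all genes were called higher and 2.26% lower. In the 5-array fit 4 members were higher (Slc6a9, Slc38a2, Slc7a1 and Slc1a4) and 3 lower (Slc7a5, Slc38a3 and Slc1a5), where 12.3% of all genes were higher and 14.3% lower. The 10 had a median difference of 0.07 in the 6-array fit and 0.29 in the 5-array fit, against 0.02 and 0.01 over all genes. The arrays labelled DOX lay wholly on one side of the control arrays for 3 of the 10 members, which were Slc7a5, Slc1a5 and Slc7a3, and for 32.0% of all genes. In the 5 arrays this held for 9 of 10 members, all but Slc38a1, and for 51.6% of all genes. The 3 controls agreed closely, with SDs from 0.03 to 0.20, and the 3 arrays labelled DOX had SDs from 0.37 to 1.28. RNA was taken from whole cultures, so fewer cells that use a carrier and less RNA per cell cannot be told apart.

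**Figure D1:**
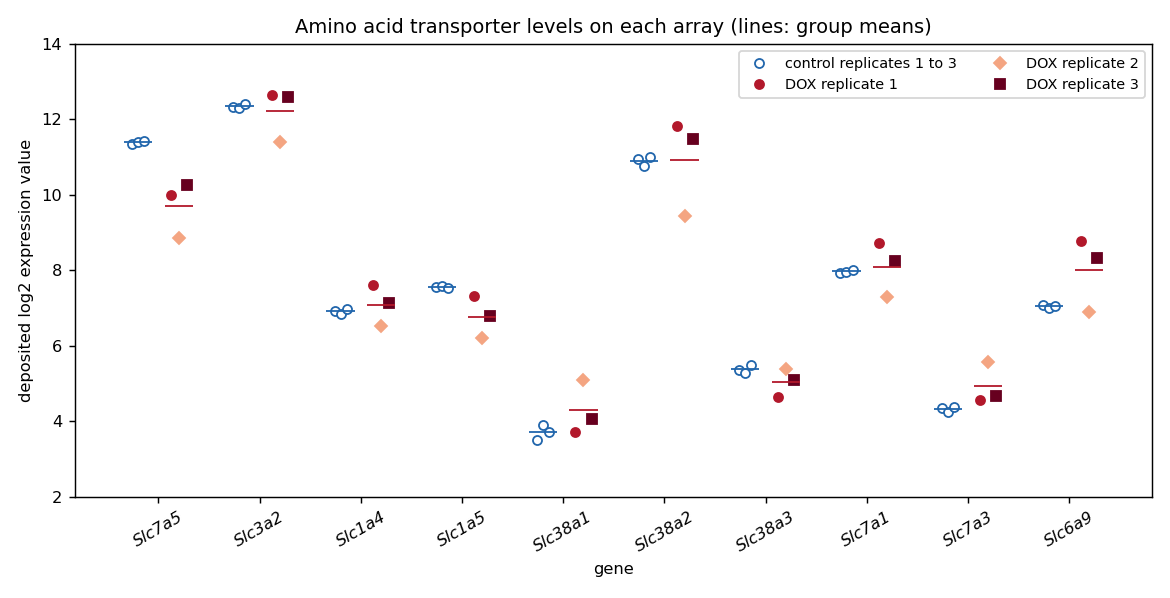
Deposited log2 value of each carrier on each array, with control replicates as open circles and the 3 arrays labelled DOX as filled marks, and a line at each group mean. For Slc7a5 the controls sit between 11.35 and 11.43 and the arrays labelled DOX at 9.99, 8.84 and 10.27, while for Slc38a2 and Slc6a9 DOX replicates 1 and 3 lie above the controls and DOX replicate 2 below them.

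**Figure D2:**
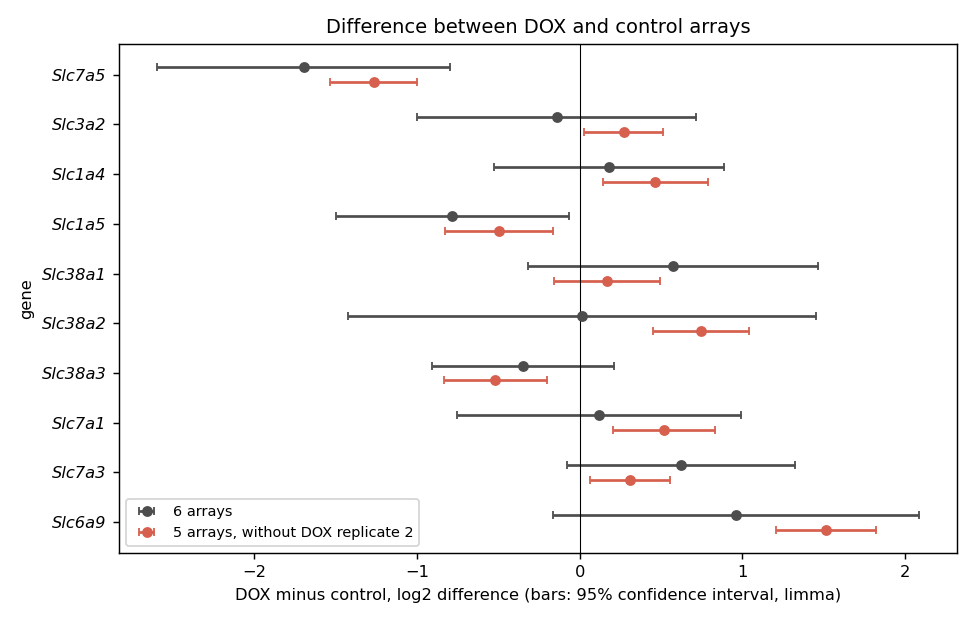
DOX minus control difference of each carrier on the log2 scale with its 95% confidence interval from limma, for all 6 arrays and for the 5 arrays without DOX replicate 2. The intervals with 6 arrays cross 0 for all carriers except Slc7a5 (−2.60 to −0.80) and Slc1a5 (−1.50 to −0.07), and those with 5 arrays are narrower and cross 0 for Slc38a1.

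Start-site sequences were found for 5 of the 10 genes in the RefSeq promoter table of build GRCm38.p6, which holds 300 bases for each start, 250 before it and 50 after. These 5, Slc1a4, Slc38a2, Slc7a1, Slc6a9 and Slc3a2, read above all controls on DOX replicates 1 and 3, and the bases before a start are shown because several of the genes are known ATF4 targets. The 100 bases before the start are given 5′ to 3′ on the gene's strand (for Slc1a4 with 4 bases after it), at 1 listed start of each gene. Capitals mark whole matches, on either strand, to TTGCATCA (the core of C/EBP-ATF elements), GGGCGG (a GC box) or CCAAT.
Slc1a4, chr11:20332710-20332813, minus strand: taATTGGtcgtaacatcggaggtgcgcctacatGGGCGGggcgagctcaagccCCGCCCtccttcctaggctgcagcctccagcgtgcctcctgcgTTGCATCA
Slc38a2, chr15:96699729-96699828, minus strand: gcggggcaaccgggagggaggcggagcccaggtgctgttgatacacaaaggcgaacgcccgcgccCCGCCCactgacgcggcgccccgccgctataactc
Slc7a1, chr5:148399905-148400004, minus strand: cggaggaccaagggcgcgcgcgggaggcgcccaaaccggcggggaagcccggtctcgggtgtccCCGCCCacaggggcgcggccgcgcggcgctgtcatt
Slc6a9, chr4:117835158-117835257, plus strand: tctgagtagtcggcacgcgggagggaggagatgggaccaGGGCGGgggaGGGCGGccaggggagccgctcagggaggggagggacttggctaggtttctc
Slc3a2, chr19:8713898-8713997, minus strand: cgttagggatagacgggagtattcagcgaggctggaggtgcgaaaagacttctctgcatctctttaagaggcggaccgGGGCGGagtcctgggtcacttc
Slc6a9 has 3 listed starts and Slc7a1 has 2, which makes 8 windows. TTGCATCA was in 1 of these 8, that of Slc1a4, where it spans the start from base −4 to base 4, and in 0.895% of 32851 windows of the table. TTTCATCA, CACGTG and TGACGTCA, searched on both strands, were in none of the 8 and in 1.02%, 7.15% and 1.79% of all windows. GGGCGG was in 5 of the 8, 1 for each gene, against 35.7% of all windows. These 5 windows were 56% to 73% G and C, against a median of 52.7% over all windows, and this share was not matched for. CCAAT was in 2 of the 8 (37.4% of all) and TATAAA in 1, another listed start of Slc7a1 (13.6% of all). No searched motif overlapped another in the printed stretches. A match of letters is a description of these windows and not a binding site.

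Slc7a5, the light chain that exchanges leucine and other large neutral amino acids, had the most negative difference of the 10 in both fits. It read 11.35, 11.41 and 11.43 in the controls and 9.99, 8.84 and 10.27 in DOX replicates 1, 2 and 3. All 3 arrays labelled DOX lay at least 1 log2 unit under every control. The difference was −1.70 (SE 0.38, limma adjusted p = 0.0914, n = 3 per group), a 3.24-fold lower value that missed the threshold. Without DOX replicate 2 Slc7a5 fell by 1.27 on the log2 scale (SE 0.12, limma adjusted p = 2.39e-05), 2.40-fold. A second quantile normalization over the 6 arrays, which brought the distribution of DOX replicate 2 onto that of the others, gave −1.51 (limma adjusted p = 0.0143). With 6 arrays it did not pass with median centring (−1.90, limma adjusted p = 0.153) or with the replicate number as a block (−1.70, limma adjusted p = 0.159). Slc7a5 kept its direction in all 18 alternatives and passed in 7 of them, which include the threshold of 0.1. Ordered from the most negative 6-array difference, it was number 325 of the 19937 genes.

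Slc3a2, the heavy chain that Slc7a5 and several other light chains need to reach the surface, did not pass the test in either fit. It read 12.34, 12.30 and 12.41 in the controls, 12.65 and 12.60 in DOX replicates 1 and 3, and 11.39 in DOX replicate 2. Replicates 1 and 3 were slightly above every control and replicate 2 was below them. The difference was −0.14 with 6 arrays (limma adjusted p = 0.835) and 0.27 with 5 arrays (95% confidence interval 0.03 to 0.51, limma adjusted p = 0.0952). On each array the log2 value of Slc7a5 minus that of Slc3a2 gives how the pair changed relative to each other. It was −0.98, −0.89 and −0.98 in the controls and −2.65, −2.55 and −2.33 in DOX replicates 1, 2 and 3. The ratio thus moved by −1.56 with all arrays and by −1.54 without DOX replicate 2, so the array that stands apart gave nearly the same ratio as the other arrays labelled DOX. Both genes lay in decile 10 of control levels, and a shift common to that decile drops out of this ratio.

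**Figure D3:**
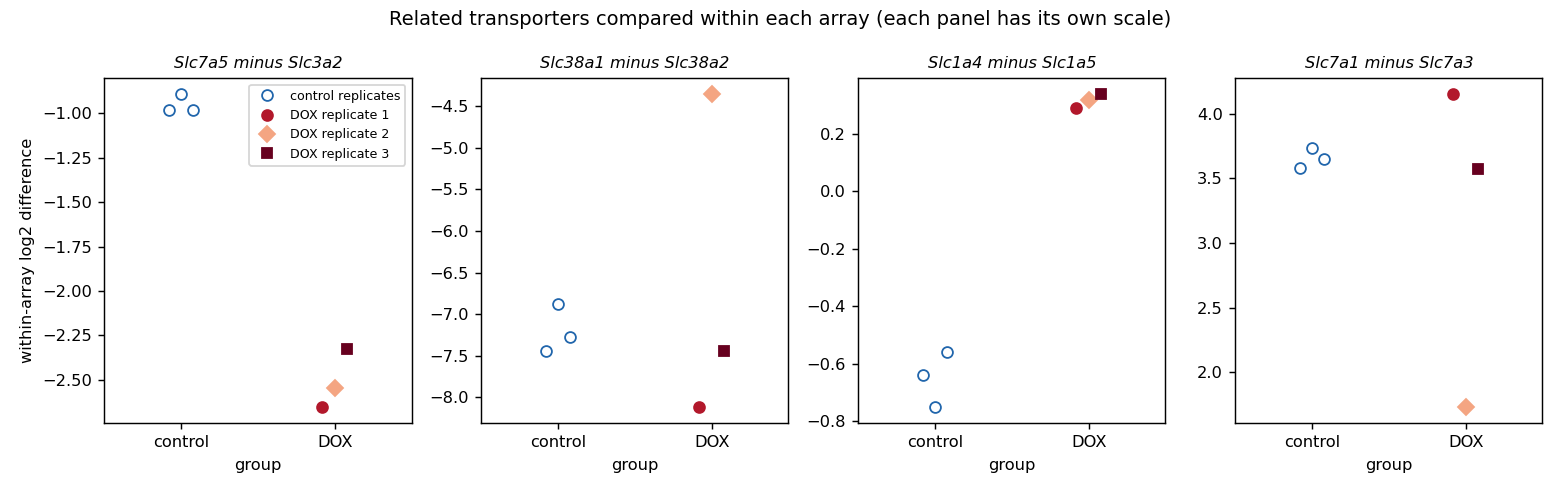
Log2 value of one carrier minus that of its relative on the same array, by group, for 4 pairs, with each panel on its own scale and controls as open circles. The shift between groups is what can be read, not the level: Slc7a5 minus Slc3a2 and Slc1a4 minus Slc1a5 separate the groups with DOX replicate 2 among the others, and the other 2 pairs place DOX replicate 2 far from DOX replicates 1 and 3. Slc7a5 and Slc3a2 are of like control level (both in decile 10). Slc1a4 and Slc1a5 lie in deciles 7 and 8, whose medians on DOX replicate 2 differed (−0.75 and −1.06). Slc38a1 and Slc38a2 lie in deciles 2 and 10, and Slc7a1 and Slc7a3 in deciles 8 and 3.

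The paralogs Slc1a4 (ASCT1) and Slc1a5 (ASCT2, a main route for glutamine) went opposite ways in the 5 arrays without DOX replicate 2. Slc1a4 read 6.91, 6.84 and 6.98 in the controls and 7.62, 6.52 and 7.13 in DOX replicates 1, 2 and 3. DOX replicates 1 and 3 were above the controls and replicate 2 below. The difference was 0.18 with 6 arrays (SE 0.29, limma adjusted p = 0.739), and without DOX replicate 2 Slc1a4 rose by 0.47 (SE 0.15, limma adjusted p = 0.0369). In the 5 arrays that call was lost with the replicate number as a block and with arrays centred on their medians, where the limma adjusted p was 0.0770 and 0.0775. Slc1a5 read 7.55, 7.59 and 7.54 in the controls and 7.33, 6.20 and 6.79 in the arrays labelled DOX, all below every control. Its difference was −0.78 with 6 arrays (SE 0.30, limma adjusted p = 0.316), and without DOX replicate 2 it fell by 0.50 (SE 0.15, limma adjusted p = 0.0316), 1.41-fold. Slc1a4 minus Slc1a5 on the same array was −0.64, −0.75 and −0.56 in the controls and 0.29, 0.32 and 0.34 in DOX replicates 1, 2 and 3. The ratio of these paralogs moved by 0.96 with all arrays and by 0.96 without DOX replicate 2. They lay in deciles 7 and 8 of control levels, whose medians on DOX replicate 2 were −0.75 and −1.06. That gap does not drop out of the ratio on that array. Against these medians Slc1a4 and Slc1a5 read 0.36 and −0.29 on DOX replicate 2.

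Among the sodium-coupled Slc38 carriers, Slc38a2 (SNAT2), a system A carrier whose gene is known to be induced when amino acids are scarce, gave the widest spread. It read 10.95, 10.77 and 11.00 in the controls, 11.82 and 11.49 in DOX replicates 1 and 3, and 9.45 in DOX replicate 2. The 2 high arrays and the low one cancelled, and the 6-array difference was 0.01 (95% confidence interval −1.43 to 1.45, limma adjusted p = 0.992). Without DOX replicate 2 Slc38a2 rose by 0.75 (SE 0.13, limma adjusted p = 0.00186), 1.68-fold. On DOX replicate 2 its deviation from the control mean was −1.45, where genes of the same decile of control levels had a median of −1.59.

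Slc38a3 (SNAT3), a system N carrier of glutamine and histidine, read 5.36, 5.29 and 5.48 in the controls and 4.63, 5.37 and 5.08 in DOX replicates 1, 2 and 3. Replicate 2 fell within the controls and the other 2 lay below them. Its difference was −0.35 with 6 arrays (limma adjusted p = 0.484), and without DOX replicate 2 it fell by 0.52 (SE 0.14, limma adjusted p = 0.0212). Slc38a1 (SNAT1) read 3.50, 3.90 and 3.72 in the controls and 3.71, 5.10 and 4.05 in the arrays labelled DOX, in decile 2 of control levels. This array summary gives no detection calls, so a level this low may hold little signal of the transcript. Its differences of 0.58 and 0.17 with 6 and 5 arrays did not pass (limma adjusted p = 0.476 and 0.449). A second probe set of Slc38a1 read 3.55 to 3.78 in the controls and 3.68, 4.34 and 3.57 in the arrays labelled DOX, so both were highest on DOX replicate 2.

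The cationic carrier Slc7a1 (CAT1), the main arginine and lysine importer of many cell types, read 7.93, 7.97 and 8.02 in the controls and 8.73, 7.29 and 8.26 in DOX replicates 1, 2 and 3. DOX replicates 1 and 3 were above the controls and replicate 2 below. The difference was 0.12 with 6 arrays (SE 0.36, limma adjusted p = 0.86), and without DOX replicate 2 Slc7a1 rose by 0.52 (SE 0.14, limma adjusted p = 0.0201). Its paralog Slc7a3 (CAT3) read 4.34, 4.23 and 4.37 in the controls and 4.57, 5.56 and 4.68 in the arrays labelled DOX, all above every control. The 6-array difference of Slc7a3 was 0.62 (limma adjusted p = 0.405) and the 5-array one 0.31 (limma adjusted p = 0.0645). It lay in decile 3 of control levels, whose genes read a median of 0.79 above control on DOX replicate 2.

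Slc6a9 (GlyT1), a sodium- and chloride-coupled glycine carrier, gave the largest rise among the 10 carriers without DOX replicate 2. It read 7.08, 7.01 and 7.06 in the controls, 8.79 and 8.34 in DOX replicates 1 and 3, and 6.90 in DOX replicate 2. The first 2 were over 1 log2 unit above every control and the last was just under them. The difference was 0.96 with 6 arrays (SE 0.47, limma adjusted p = 0.415), and without DOX replicate 2 Slc6a9 rose by 1.51 (SE 0.14, limma adjusted p = 1.77e-05), 2.86-fold. Ordered from the highest difference in that fit, it was number 69 of the 19937 genes. On DOX replicate 2 Slc6a9 stood at −0.15 from the control mean, against a median of −0.75 for genes of its decile, number 7.

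Set against genes of like control level, DOX replicate 2 placed each carrier on the same side as DOX replicates 1 and 3 did. Slc7a5 differed from the median of its decile by −1.34, −0.96 and −1.01 on DOX replicates 1, 2 and 3. Slc6a9 read 1.70, 0.60 and 1.40 above it and Slc3a2 0.36, 0.63 and 0.36. Slc38a2 read 0.98, 0.14 and 0.70 above. Slc38a1 was above by only 0.008 on DOX replicate 1. All 10 carriers lay on one side on all 3 arrays, 7 above and 3 below, against 54.2% of all genes, whose 3 values also share the control mean. This reading was chosen after the values were seen and carries no test.

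**Figure D4:**
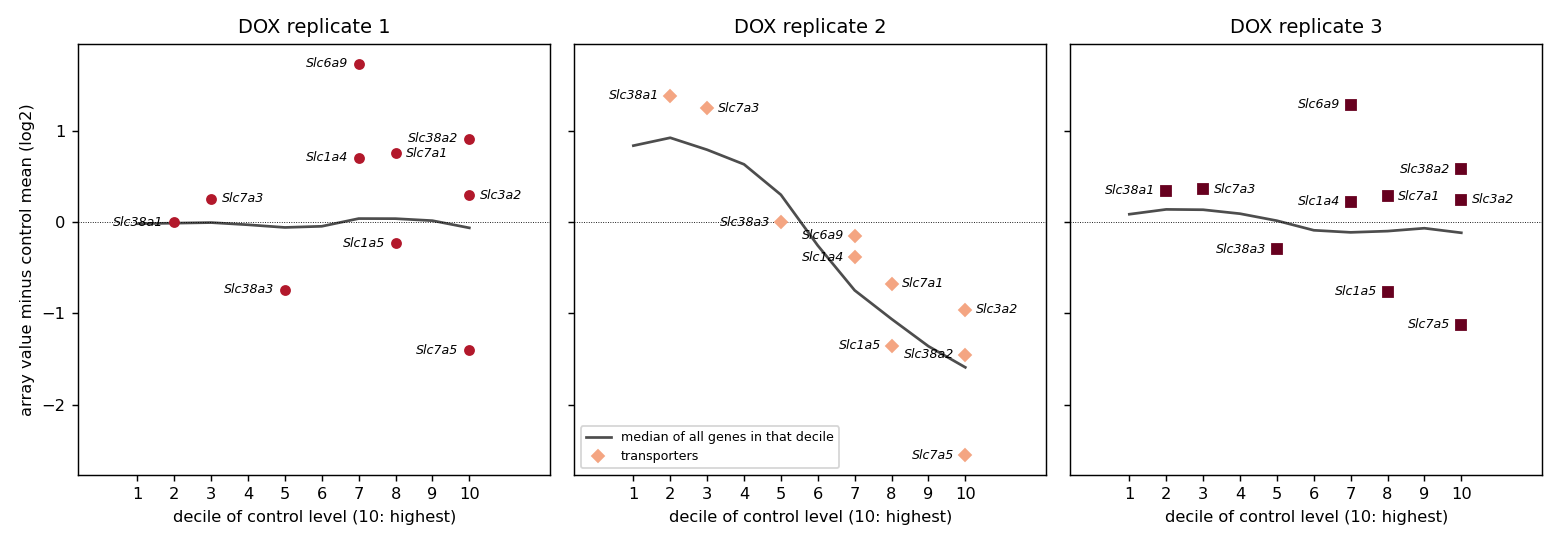
Value of each carrier minus its control mean (log2) on each array labelled DOX, plotted against the decile of control levels in which it lies, with a line for the median of all genes in each decile. The line is near 0 on DOX replicates 1 and 3 and runs from 0.84 to −1.59 on DOX replicate 2, and Slc7a5, Slc1a5 and Slc38a3 lie below it on all 3 arrays.

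Slc7a5 alone met the rule for a search of similar profiles, which required a difference of at least 1 and arrays that do not overlap between groups. After each gene's control mean was subtracted, the 2 named genes nearest to it over the 6 arrays were C2cd5, with a root mean square difference of 0.05, and Gstt3, with 0.09. C2cd5, which encodes a C2-domain protein, read 6.87, 5.75 and 7.16 on DOX replicates 1, 2 and 3 from a control mean of 8.26, and Gstt3, a glutathione transferase, read 8.33, 7.10 and 8.61 from 9.81. Their differences were −1.67 and −1.79 with 6 arrays (limma adjusted p = 0.0933 and 0.0917) and −1.25 and −1.33 with 5 (limma adjusted p = 3.53e-05 and 2.03e-05). Values near those of Slc7a5 follow from the choice of these genes by likeness and are no separate result.

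Beyond the 10, the list of other amino acid carriers of the plasma membrane held 28 genes, all measured. With 6 arrays 4 fell and 0 rose, 24 did not pass, and 6 had an unadjusted limma p under 0.05. Without DOX replicate 2, 4 fell and 3 rose, which is 25% of the list against 26.6% of all genes. The median difference was 0.23 with 6 arrays and −0.05 with 5. Slc6a14 (ATB0,+), a broad importer of neutral and cationic amino acids, read 6.80 to 6.85 in the controls and 5.10, 5.08 and 5.07 in the arrays labelled DOX, a fall of −1.74 (SE 0.16, limma adjusted p = 0.00426). Slc43a2 (LAT4), a uniporter of leucine and its kin, fell by 2.21 (SE 0.23, limma adjusted p = 0.00715). Slc7a7, a light chain for cationic amino acids, fell by 1.90 (SE 0.27, limma adjusted p = 0.0208), and Slc1a1, a glutamate and aspartate importer, fell by 2.09 (SE 0.37, limma adjusted p = 0.0451). Slc6a14 and Slc43a2 share large neutral amino acids as substrates with Slc7a5. All 4 falls passed without DOX replicate 2 (−1.73, −2.05, −1.63 and −1.81). All 4 lost the call when any one control replicate was left out (differences from −2.25 to −1.72, limma adjusted p 0.0625 to 0.246). Slc1a1 also lost it without DOX replicate 1 (−1.95) and with second quantile normalization or median centring (limma adjusted p = 0.0709 and 0.0686), and Slc7a7 without DOX replicate 3 (−2.00). With the replicate number as a block Slc7a7 and Slc1a1 lost it as well (limma adjusted p = 0.0535 and 0.099).

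Slc3a2 has several light chains, and they did not move as one. Slc7a11 (xCT), the cystine and glutamate exchanger, read 5.53, 5.44 and 5.19 in the controls and 10.11, 6.97 and 8.73 in DOX replicates 1, 2 and 3. All 3 arrays labelled DOX were over 1 log2 unit above every control, and they differed widely from each other. The difference of 3.21 (SE 0.73) missed the threshold with 6 arrays (limma adjusted p = 0.0997), and without DOX replicate 2 Slc7a11 rose by 4.03 (SE 0.30, limma adjusted p = 3.59e-06), 16.4-fold, the largest rise of all 19937 genes in that fit. Slc7a6, Slc7a8 and Slc7a10, named here after their values were seen as the remaining Slc3a2 partners on the list, differed by 0.39, 0.05 and 0.26 with 6 arrays and by 0.51, −0.20 and −0.06 with 5. Of these, Slc7a6 passed with 5 arrays (limma adjusted p = 0.00752). So, without DOX replicate 2, the partners Slc7a5 and Slc7a7 fell, Slc7a11 and Slc7a6 rose, and Slc7a8 and Slc7a10 did not pass. Slc36a1, a proton-coupled carrier for small amino acids, differed by 0.52 (limma adjusted p = 0.311) and rose by 0.55 without DOX replicate 2 (limma adjusted p = 0.0166).

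**Figure D5:**
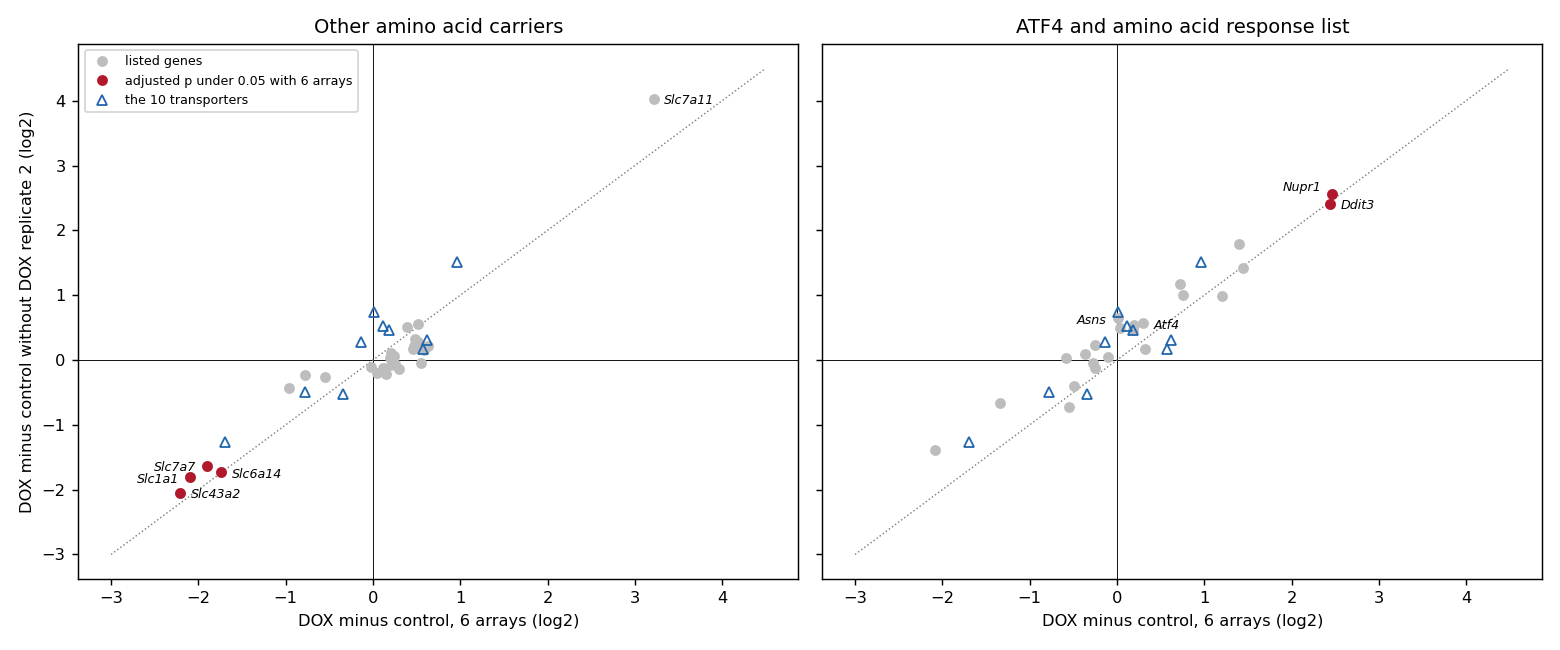
DOX minus control log2 difference with 6 arrays (horizontal) and without DOX replicate 2 (vertical), for the 28 other carriers and for 23 genes of the ATF4 and amino acid response list, with the 10 carriers as triangles in both panels and a dotted line where the 2 differences are equal. Red marks 4 carriers that fell and 2 listed genes that rose with 6 arrays, and Slc7a11 stands highest at 3.21 and 4.03.

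Of 24 genes of the ATF4 and amino acid response, 23 were measured, and 2 of these, Ddit3 and Nupr1, rose with 6 arrays while 0 fell. With 5 arrays 11 rose and 4 fell, where 12.3% of all genes rose and 14.3% fell, and the median difference was 0.46 (0.03 with 6 arrays). The 4 that fell, named after their values were seen, were the serine and one-carbon enzymes Psat1 (−1.39), Phgdh (−0.72) and Shmt2 (−0.66) and the lipoprotein receptor Vldlr (−0.40). Psat1 had the lowest limma adjusted p of these (8.2e-06), and its 6-array difference of −2.09 did not pass (limma adjusted p = 0.164). Serine and one-carbon enzymes of the list did not all fall. Mthfd2 rose by 1.00 with 5 arrays (limma adjusted p = 0.000116), and Psph (−0.12) did not pass. Both were also named after their values were seen. Atf4 itself read 9.12 to 9.20 in the controls and 9.88, 8.90 and 9.57 in DOX replicates 1, 2 and 3. It differed by 0.29 (limma adjusted p = 0.577) and rose by 0.57 without DOX replicate 2 (limma adjusted p = 0.00603). Asns, asparagine synthetase and a standard ATF4 target, read 10.32 to 10.36 in the controls and 11.04, 9.08 and 10.93 in the arrays labelled DOX. Slc38a2 had this order of the 3 arrays, and so did Erbb3, Slc3a2 and Atf4. All of these lay in decile 10, whose median deviation on DOX replicate 2 was −1.59. Slc1a4, Slc7a1 and Slc6a9, in lower deciles, had the same order, and its share over all genes was not counted. Asns differed by 0.01 (limma adjusted p = 0.993) and rose by 0.65 without DOX replicate 2 (limma adjusted p = 0.00134). Ddit3 (CHOP) read 8.80, 8.85 and 8.73 on the 3 arrays labelled DOX from a control mean of 6.35, a rise of 2.44 (SE 0.16, limma adjusted p = 0.00203; 2.41 with 5 arrays). DOX replicate 2 gave the highest of the 3 values. Nupr1, a small stress-induced chromatin protein, read 12.26, 11.87 and 12.01 from a control mean of 9.58, a rise of 2.47 (SE 0.18, limma adjusted p = 0.00241; 2.55 with 5 arrays).

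The genes through which amino acids are sensed at the lysosome numbered 21, all measured, and 0 passed with 6 arrays in limma, with 3 at an unadjusted p under 0.05. With 5 arrays 9 rose and 3 fell, which is 57.1% of the list against 26.6% of all genes. The smallest p with 6 arrays belonged to Sesn1, a leucine sensor family member, at −1.15 (limma adjusted p = 0.307), and to Slc36a1 above. Sesn1 fell by 0.64 in the 5-array fit (limma adjusted p = 0.0015). Of 13 genes of glutamine and branched-chain amino acid use 11 were measured, 0 passed with 6 arrays in limma with 1 at an unadjusted p under 0.05, and 3 rose and 2 fell without DOX replicate 2 (45.5% of the list against 26.6% of all genes). Bckdha and Bckdk, a subunit and the kinase of the branched-chain ketoacid dehydrogenase, had 6-array differences of −1.31 and −1.24 (limma adjusted p = 0.239 and 0.392) and fell by 0.82 and 0.56 without DOX replicate 2 (limma adjusted p = 0.00189 and 0.00542). Bckdhb, another subunit of that enzyme, went the other way and rose by 1.06 without DOX replicate 2 (limma adjusted p = 5.22e-05). The other 2 that rose in that fit were Got1 (1.35) and Gpt2 (0.87). These 3 were named after their values were seen.

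Markers of cell types moved beside these carriers. The summed level of 7 luminal markers was 14.17 to 14.20 in the controls and 13.52, 12.96 and 13.57 in DOX replicates 1, 2 and 3. Of the 7, 2 were lower with 6 arrays and 4 with 5, where 2.26% and 14.3% of all genes were lower. The summed level of 4 measured milk genes was 13.92 to 14.07 against 8.82 to 10.79, and 2 of the 4 were lower with 6 arrays and 4 with 5. For 5 measured immune markers the sum was 8.06 to 8.18 against 8.47 to 8.81, and 0 passed with 6 arrays and 2, Cd68 and Ptprc, were higher with 5, where 12.3% of all genes were. Cd68 was the brightest of these on DOX replicates 1 and 3 (8.32 and 8.29), and the macrophage markers Csf1r and Adgre1 had 5-array differences of −0.08 and −0.22 that did not pass. The basal sum was 8.18 to 8.27 in the controls, 7.86 and 8.02 on DOX replicates 1 and 3, and 8.72 on DOX replicate 2, so that the groups overlapped with 6 arrays and not with 5, where 1 of the 6 basal markers, Krt14, was lower. Summed fibroblast, endothelial and adipocyte markers overlapped between the groups with and without DOX replicate 2. Individual markers named in this paragraph were chosen after their values were seen. No marker can be called absent without detection calls, and the part of these cell types in the carrier results was not tested.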

How the data were processed

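RNA of 6 organoid cultures (3 control, 3 labelled DOX) was measured on 1-colour Affymetrix arrays. Each deposited number is a log2 level of 1 probe set, which the authors made with RMA and affy, per the submitters' processing notes; versions and genome build are not given in the sources used here. The table was used as deposited. Of 34760 probe sets, 21640 had 1 gene symbol in the platform annotation, 1321 several and 11799 none. The last 2 kinds were left out. The probe set with the highest mean represented a gene, giving 19937 genes.

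A linear model per gene with group as its sole term was fitted by limma 3.58.1 (R 4.3.3; eBayes moderation, two-sided p adjusted by Benjamini-Hochberg over all genes, threshold 0.05), with 6 arrays and with 5 (without DOX replicate 2). The series describes biological replicates, and the labels name no separate mice, so p-values measure the spread between these samples. Members and lists were chosen with earlier results of these data known. All members are named; from each list up to 4 genes past the threshold with 6 arrays are named, or the 2 with the smallest p, with Erbb3, Atf4, Ddit3, Asns, Slc7a11, Slc6a14 and Slc36a1 in any case; up to 2 genes of similar profile; later choices are marked. Alternatives were the replicate block, each array left out, second quantile normalization, median centring, low-level filters, mean over probe sets, trend and robust variance, array weights and a threshold of 0.1. The GC box, CCAAT box and TATA box motifs were chosen after the data were seen. The scripts were tested on simulated data with known changes, with independent noise for each gene and no shared shift of a whole array. There the 6-array fit recovered 2% of 2-fold and 50% of 4-fold changes, and the 5-array fit 67% and 99%. The number of arrays limits the precision. List genes with no probe set of their own symbol alone were left out, and proteins were not compared here.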

Additional observations from a re-analysis of the deposited data

How the results depend on the processing

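With 6 arrays, Slc7a5, Slc1a5, Slc38a1, Slc38a3, Slc7a3 and Slc6a9 kept their direction in every alternative that could be run for them (18 each, 16 for Slc38a1 and Slc7a3 and 17 for Slc38a3, which low-level filters removed). The cause of the changes below was not tested. Counts of members called, 0 higher and 0 lower with 6 arrays, were 4 and 3 without DOX replicate 2 (0 to 4 and 0 to 3 over the arrays left out), 3 and 3 when the replicate block was added to that, 4 and 3 when a second quantile normalization was added, 3 and 3 when median centring was added, 4 and 3 with array weights, 0 and 1 with the second quantile normalization alone, and 0 and 1 at a threshold of 0.1. Array weights gave DOX replicates 1, 2 and 3 weights of 0.70, 0.033 and 3.26, so the DOX side of that fit rested mostly on DOX replicate 3. The 4 members higher with array weights included Slc7a3 and not Slc1a4, whereas those higher without DOX replicate 2 included Slc1a4 and not Slc7a3. The equal counts of these fits are therefore not the same calls. Counts over all genes, 24 higher and 450 lower, ranged from 2 to 2454 higher and 61 to 2855 lower over the arrays left out. They were 1841 and 2320 without DOX replicate 2 with the replicate block, 2360 and 3408 with it left out and a second quantile normalization, 1823 and 3410 with it left out and median centring, and 3643 and 3752 with array weights. They were 185 and 626 with a second quantile normalization, 7 and 487 with median centring and 73 and 669 at a threshold of 0.1.

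The correlations of same-numbered deviations were 0.117, 0.194 and 0.085 for replicates 1, 2 and 3. DOX replicates 1 and 2 correlated best with the control of the same number, and DOX replicate 3 with control replicate 1. Correlations this small over so few arrays cannot decide whether the numbers mark a pairing, and the labels name none. With the replicate block 3 genes were higher and 159 lower, and 0 members passed.

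Slc3a2 turned from −0.14 to 0.27 without DOX replicate 2, to 0.25, 0.21 and 0.20 when the replicate block, quantile normalization or centring was added to that, and to 0.24 with array weights (−0.36 to 0.27 over the arrays left out). With median centring, which moved the median of all genes to −0.18, Slc1a4 turned to −0.024, Slc38a2 to −0.19, Slc7a1 to −0.085, Asns to −0.19, Slc7a8 to −0.16 and Erbb3 to −0.10. Over the arrays left out Slc1a4 ranged from −0.082 to 0.47, Slc38a2 from −0.44 to 0.75, Slc7a1 from −0.20 to 0.52, Asns from −0.34 to 0.65, Slc7a8 from −0.20 to 0.23, Slc7a10 from −0.065 to 0.43 and Erbb3 from −0.16 to 0.37. Slc7a8 was −0.27 with a second quantile normalization and −0.15 with array weights, and −0.30, −0.34 and −0.27 without DOX replicate 2 with block, quantile normalization and centring. Slc7a10 was −0.047, −0.17 and −0.13 in those fits and −0.032 with array weights.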
